A study of Homo sapiens with 30 samples.

Results

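H19 and 9 other imprinted genes were followed by RNA-Seq in 5 neuroblastoma (NB) lines. The 10 genes are H19, IGF2, CDKN1C, IGF2R, PEG10, MEST, GRB10, DLK1, MEG3, and PEG3. They were taken from the expression table by symbol, and all 10 are among its 26228 genes. H19 was chosen by its own high level in the MYCN lines of these libraries, so its differences between lines, among the MYCN lines too, are given below as descriptions, with no test. Its changes under CYC065 rest on the same libraries, so their p-values are read with that limit. The other 9 are known as imprinted genes, and whether they are imprinted in these cells was not tested.

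An imprinted gene is expressed mainly from either the maternal or the paternal copy. A methylation mark laid down in the egg or sperm tells these copies apart. H19, a spliced and polyadenylated noncoding RNA, and IGF2, a fetal growth factor, are neighbours on chromosome 11. They share enhancers, and a control region between them, bound by CTCF when unmethylated, directs those enhancers to H19 on the maternal copy and to IGF2 on the paternal copy. H19 is also the host transcript of the microRNA miR-675. RNA-Seq values of this kind sum both copies and carry no information on the parent of origin.

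The parental line was SH-EP, an established human NB cell line. The other 4 lines were SH-EP cells stably carrying MYCN under an exogenous promoter, as WT, T58A, S62A, or the double mutant T58A S62A. T58 and S62 are the phosphorylation sites that control turnover of the MYCN protein. Each line was treated for 6 hours with DMSO or with 1 μM CYC065, a CDK9 and CDK2 inhibitor, with 3 libraries per line and treatment and 30 in all. The labels do not say whether the 3 libraries of a group came from separate cultures, so p-values measure the spread between these libraries. Each MYCN form is represented by 1 stable line, so a difference between forms cannot be told apart from one between lines.

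The unit is FPKM (fragments scaled to transcript length and to the mapped fragments of the library). The low values give a relative depth of 0.470 to 1 in DMSO and 0.293 to 0.554 in CYC065, where 1 is the deepest library. MYCN was listed at 0 in all SH-EP libraries and at 5.08 to 15.7 FPKM in the MYCN lines in DMSO. All 7 mesenchymal NB markers were above 0 in all 30 libraries, PRRX1 at 111 FPKM in SH-EP in DMSO. Of the adrenergic markers, PHOX2A was at 0 in all 30 libraries and DBH in 29, whereas HAND2, GATA2, and GATA3 were at 81.8, 15.2, and 8.74 FPKM in SH-EP in DMSO. Of the 9 markers of other cell types, only the keratin KRT8 exceeded 1 FPKM. All 6 SH-EP index sequences recur on MYCN-line libraries, whereas 0 MYCN-line libraries share one with another MYCN-line library. Whether SH-EP was sequenced separately is not given in the sources used here and was not tested. If it was, differences of the MYCN lines from SH-EP cannot be told apart from those between runs. Synthetic spike-in RNAs made up 1.99% to 2.29% of FPKM in SH-EP and 3.15% to 9.36% in the MYCN lines in DMSO. In bulk RNA, fewer expressing cells and less RNA per cell cannot be told apart.

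H19 lies on chr11:2016396-2025782 of GRCh37 on the minus strand, as a noncoding gene. The products of miR-675, which is embedded in H19, are shown because H19 is their host. Their sequences are from RefSeq on GRCh38.p14, and capitals mark the seed, bases 2 to 8.
hsa-miR-675-5p: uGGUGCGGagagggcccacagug
hsa-miR-675-3p: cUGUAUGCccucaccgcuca
The seeds differ from each other. The 5p arm lies on chr11:1996800-1996822 and the 3p arm on chr11:1996768-1996787, both on the minus strand. The MIR675 row of the table was at 0 in all 30 libraries, in which poly(A) RNA was selected.

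MYCN binds E-boxes, best of all CACGTG, which reads the same on both strands. The general E-box pattern is CANNTG, in which N is any base and which includes CACGTG. IGF2R is shown because its start window, 250 bases before to 50 after the start in the RefSeq table of GRCh38.p14, holds CACGTG 3 times. Its 250 bases before the start, on chr6:159968832-159969081 of the plus strand, are shown with CACGTG in capitals.
IGF2R upstream window: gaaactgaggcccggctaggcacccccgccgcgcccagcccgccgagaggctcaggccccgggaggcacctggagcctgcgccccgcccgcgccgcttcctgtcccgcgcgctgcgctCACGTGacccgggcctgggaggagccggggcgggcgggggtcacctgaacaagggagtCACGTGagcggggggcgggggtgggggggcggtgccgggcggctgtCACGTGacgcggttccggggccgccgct
Of the 35116 windows of 300 bases in that table, 7.26% held CACGTG, 0.0940% held it 3 times or more, and 68.7% held CANNTG. The windows of MEG3, MEST, and GRB10 in the same table held no CACGTG. IGF2, CDKN1C, DLK1, PEG10, and PEG3 had no window there, so their starts were not searched. A match is a description of the letters and not a binding site.

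H19 was expressed at a low level in SH-EP and was among the most abundant RNAs in the MYCN lines. In DMSO, the 3 SH-EP libraries were at 4.34, 6.01, and 6.61 FPKM. The WT line was at 1032, 1040.1, and 1251 FPKM, and T58A at 956, 987, and 1009 FPKM. The S62A line was at 281, 283, and 302 FPKM, and T58A S62A at 542, 649.9, and 653 FPKM. Every MYCN-line library exceeded every SH-EP library, and the S62A libraries lay below those of the other MYCN lines. Ranked by mean FPKM over all 26228 genes, H19 was in place 7955 in SH-EP, 56 in WT, 64 in T58A, 112 in T58A S62A, and 211 in S62A.

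On the scale of log2(FPKM + 0.1), which was used for every comparison, the H19 difference from SH-EP in DMSO was 7.61 in WT (SE 0.109), or 195-fold. It was 7.44 in T58A, 6.76 in T58A S62A, and 5.67 in S62A. Averaged over the 4 lines, 6.87 was the largest among the 11575 tested genes, those averaging 1 FPKM or more over the 30 libraries. This place belongs to the choice of the gene and is not evidence about it. No threshold was used to choose H19, so members just inside or outside one cannot be given.

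The H19 level also varied among the MYCN lines, and in DMSO the libraries of no 2 of these lines overlapped. As a description, the log2 difference of S62A was -1.93 from WT (95% interval -2.16 to -1.71) and -1.77 from T58A (-1.995 to -1.54). T58A S62A lay between, at -0.85 from WT (-1.08 to -0.62), -0.68 from T58A (-0.91 to -0.46), and 1.09 from S62A (0.86 to 1.31). T58A and WT, the neighbours at the top, differed by -0.17 (-0.39 to 0.061). H19 was chosen on these libraries, so the intervals describe spread and are not read as tests. On FPKM scaled to the spike-ins, S62A was at -2.63 from WT and -2.77 from T58A, while T58A minus WT turned to 0.14.

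By mean RNA level, the order of H19 was not that of MYCN. Mean MYCN in DMSO was 13.5 ± 3.83 FPKM in T58A S62A, 12.9 ± 1.09 in WT, 8.52 ± 1.29 in T58A, and 5.72 ± 0.778 in S62A (SD, n = 3). T58A S62A, with the highest mean MYCN, was below WT and T58A in H19. S62A was lowest in both. The MYCN libraries of T58A S62A ran from 9.06 to 15.7 FPKM and overlapped those of WT (11.7 to 13.7) and T58A (7.27 to 9.84). The order of their means is thus not settled by 3 libraries each, and these are RNA values, not protein.

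**Figure D1:**
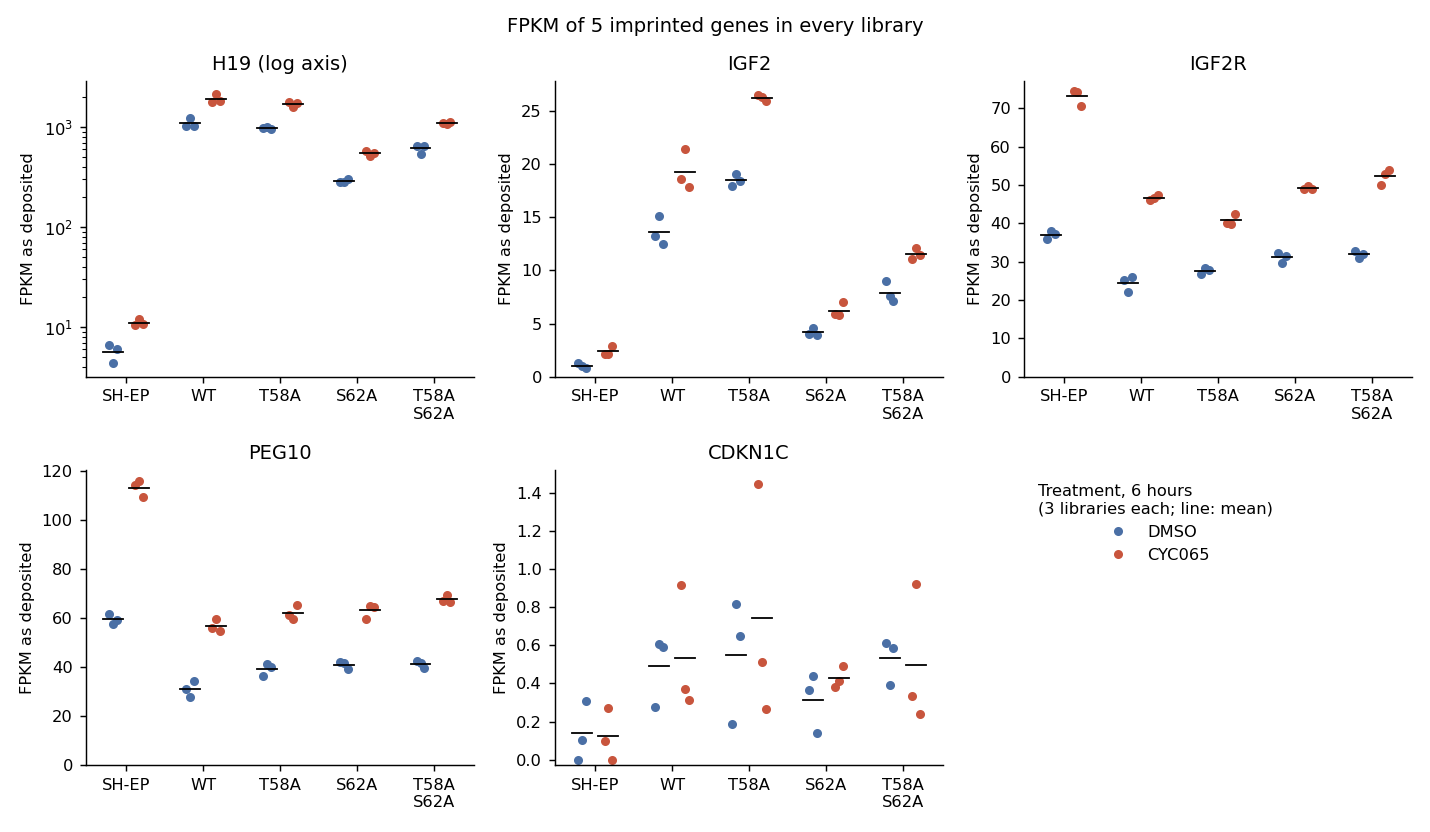
FPKM as deposited of H19, IGF2, IGF2R, PEG10, and CDKN1C in each library (points) with group means (lines), in DMSO (blue) and CYC065 (red), 3 libraries per group. H19 is on a log axis. SH-EP libraries lie at 4.34 to 12.1 FPKM for H19 and every MYCN-line library lies at 281 FPKM or above.

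IGF2, the growth factor gene next to H19, was also higher in the MYCN lines, from a much lower level. It lies on chr11:2150342-2179621 on the minus strand (GRCh37, protein coding). In SH-EP in DMSO, its libraries were at 0.839, 0.982, and 1.25 FPKM. WT was at 12.5, 13.2, and 15.1 FPKM, and T58A at 17.9, 18.4, and 19.1 FPKM. S62A was at 3.96, 3.99, and 4.54 FPKM, and T58A S62A at 7.12, 7.56, and 9.01 FPKM. The 5 lines did not overlap, and T58A rather than WT was the highest. The overlapping read-through row INS-IGF2 was at 0.01 FPKM in 28 of 30 libraries and at most 0.176 FPKM, and INS itself was at 0 in all.

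IGF2 passed the test in all 4 MYCN lines in DMSO, by limma with Benjamini-Hochberg adjustment over all tested genes and a threshold of 0.05. The log2 differences were 4.06 in T58A (SE 0.125, adjusted p = 3.92e-18), 3.62 in WT (adjusted p = 5.01e-17), 2.84 in T58A S62A (adjusted p = 2.71e-15), and 1.94 in S62A (adjusted p = 4.29e-12). Of all tested genes, 19.2% were higher in all 4 lines and 13.4% were lower in all 4. Among the other members averaging 1 FPKM or more, IGF2 was higher in all 4, whereas IGF2R and PEG10 were lower in all 4. On spike-in scaled FPKM, on which the median gene was at -1.17 in the MYCN lines, IGF2 in S62A was at 0.09 (adjusted p = 0.725), while WT, T58A, and T58A S62A were at 2.46, 3.20, and 2.09.

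All 6 pairs of MYCN lines differed in IGF2 by the same test. Among all genes, 23.6% passed for T58A against WT, 24.1% for S62A against WT, 23.7% for T58A S62A against WT, 32.8% for S62A against T58A, 16.7% for T58A S62A against T58A, and 30.7% for T58A S62A against S62A. T58A exceeded WT by 0.44 (adjusted p = 0.0120), which fell short without WT DMSO library 2 (0.38, adjusted p = 0.0570), where libraries are numbered 0 to 2 as in the column names. The log2 difference of S62A was -2.12 from T58A (adjusted p = 3.09e-12) and -1.68 from WT (adjusted p = 6.27e-10). T58A S62A was at -1.22 from T58A (adjusted p = 1.21e-07), -0.78 from WT (adjusted p = 5.36e-05), and 0.90 from S62A (adjusted p = 5.05e-06). On the spike-in scale, T58A S62A against WT was at -0.36 (adjusted p = 0.219).

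Over the 10 group means, the log2 levels of H19 and IGF2 had a Pearson's r of 0.94, and over the 8 groups of MYCN lines also 0.94. These points share libraries and lines, and r is given as a description. The ratio of H19 to IGF2 FPKM, both per length, was 5.63 ± 1.40 in SH-EP in DMSO. It was 81.3 ± 2.95 in WT, 78.5 ± 11.4 in T58A S62A, 69.7 ± 7.30 in S62A, and 53.4 ± 1.64 in T58A (SD, n = 3). The ratio in T58A did not overlap with that in any other line.

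**Figure D2:**
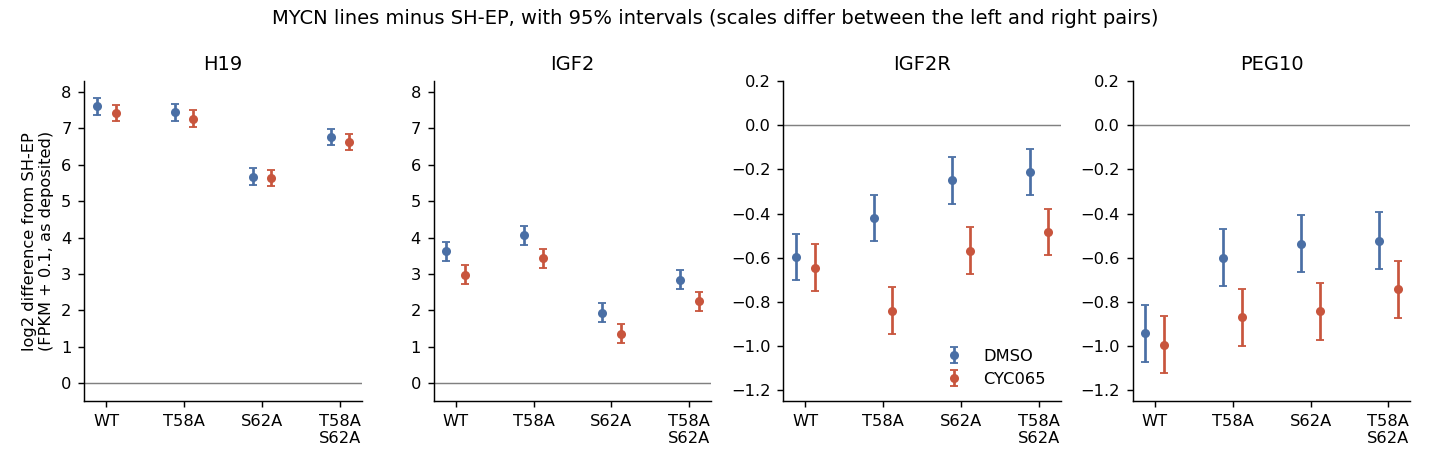
Log2 difference of each MYCN line from SH-EP (FPKM + 0.1, as deposited) for the 4 tested members, in DMSO (blue) and CYC065 (red), with 95% intervals. H19 and IGF2 are above 0 and IGF2R and PEG10 below 0 in all 4 lines under both treatments, and the y axis differs between the left and right pairs of panels.

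IGF2R encodes the receptor that takes IGF2 to the lysosome and lowers its amount outside the cell. It lies on chr6:160390114-160534539 on the plus strand (GRCh37). Its SH-EP libraries in DMSO were at 35.8, 37.2, and 37.9 FPKM. Those of WT were at 22.1, 25.2, and 26.0 FPKM, and those of T58A at 26.7, 27.7, and 28.4 FPKM. S62A was at 29.6, 31.5, and 32.1 FPKM, and T58A S62A at 31.0, 31.9, and 32.8 FPKM. Every MYCN-line library lay below every SH-EP library, by small margins in S62A and T58A S62A. The log2 differences were -0.60 in WT (SE 0.0505, adjusted p = 5.53e-10), -0.21 in T58A S62A (adjusted p = 0.00101), -0.25 in S62A (adjusted p = 0.000199), with T58A at -0.42 (adjusted p = 1.75e-07).

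PEG10, a paternally expressed gene derived from a retrotransposon, also fell below SH-EP. It lies on chr7:94285637-94299007 on the plus strand (GRCh37). In DMSO, SH-EP was at 57.6, 59.3, and 61.6 FPKM and WT at 27.8, 31.0, and 34.4 FPKM. The libraries of the other 3 MYCN lines lay between 36.6 and 42.5 FPKM. SH-EP did not overlap with any MYCN line. The log2 differences were -0.94 in WT (SE 0.0619, adjusted p = 6.29e-12), -0.60 in T58A, -0.52 in T58A S62A, and -0.54 in S62A (highest adjusted p = 1.25e-07). IGF2R and PEG10 had an r of 0.97 over the 10 group means, a description over shared libraries.

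The other 6 members had means under 1 FPKM and were not among the tested genes. CDKN1C, an inhibitor of cyclin-dependent kinases on chr11:2904443-2907005 (minus strand, GRCh37), was the only one of them above 0 in most libraries, 28 of 30. In DMSO, SH-EP was at 0, 0.105, and 0.310 FPKM, WT at 0.277, 0.590, and 0.608 FPKM, and T58A at 0.186, 0.648, and 0.817 FPKM. S62A was at 0.138, 0.366, and 0.438 FPKM and T58A S62A at 0.392, 0.588, and 0.612 FPKM. T58A S62A was the only line that did not overlap with SH-EP. In a fit without a filter on low values, the mean over the 4 lines was 1.39 (SE 0.488, adjusted p = 0.0343), and no single line passed (adjusted p = 0.0608 to 0.367). In the same fit GRB10, at 0 in 29 of 30 libraries, passed in CYC065 (mean over the 4 lines -0.21, adjusted p = 0.0278). A pass in this fit can thus rest on values near 0, and no call is made for CDKN1C.

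The remaining members were listed at 0 or near it, first those expressed from the paternal copy. DLK1, a Notch-related membrane protein gene of chromosome 14 that is often high in NB, was at 0 in all 30 libraries. PEG3, a zinc finger gene, was at 0 in 29 libraries and at 0.0137 FPKM in 1. MEST, an enzyme of the hydrolase fold, was at 0 in 23 libraries and at most 0.117 FPKM. Of the maternally expressed members, MEG3, the noncoding neighbour of DLK1, was at 0 in 29 libraries with 0.0170 FPKM in 1. GRB10, an adaptor protein gene whose parental bias depends on the tissue, was at 0 in 29 libraries with 0.0561 FPKM in 1. A 0 can be a failed estimate in a table without read counts. Housekeeping genes such as ACTB and GAPDH were above 0 in all libraries, which does not show whether the rows of these members failed.

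In CYC065, mean H19 followed the order seen in DMSO. SH-EP was at 10.4, 10.6, and 12.1 FPKM for H19 as deposited, and the MYCN lines were at 521 to 2128 FPKM. The H19 log2 difference from SH-EP was 7.42 in WT, 7.27 in T58A, 6.63 in T58A S62A, and 5.63 in S62A, given without a test. For IGF2, SH-EP was at 2.09, 2.15, and 2.89 FPKM and S62A, the lowest MYCN line, at 5.78, 5.86, and 7.03 FPKM. IGF2 exceeded SH-EP by 3.43 in T58A, 2.98 in WT, 2.25 in T58A S62A, and 1.36 in S62A (limma, highest adjusted p = 1.15e-09). IGF2R was at -0.84 to -0.48 (highest adjusted p = 1.03e-08) and PEG10 at -0.99 to -0.74 (highest adjusted p = 2.02e-10). In CYC065, 22.3% of all tested genes were higher and 21.0% lower in all 4 lines. On the spike-in scale, IGF2 in S62A turned to -0.77 (adjusted p = 0.00320).

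CYC065 was compared with DMSO within each line on FPKM scaled to the spike-ins, which were added by cell number. On this scale most genes fell, with a median of -1.06 in SH-EP, -1.57 in WT, -1.08 in T58A, -0.97 in T58A S62A, and -1.35 in S62A. The percent of genes that passed as lower was 75.7 in SH-EP, 93.7 in WT, 84.2 in T58A, 76.3 in T58A S62A, and 90.2 in S62A. All 4 tested members lay above the median gene in every line.

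H19 in WT was at 1162, 1329, and 2058 spike-in scaled FPKM in DMSO and at 657, 757, and 996 in CYC065, which did not overlap. The log2 difference was -0.89 in WT (SE 0.222, adjusted p = 0.000494) and -0.56 in S62A (adjusted p = 0.0195). Without S62A DMSO library 1 the latter was -0.49 (adjusted p = 0.0711), and without S62A CYC065 library 1 it was -0.44 (adjusted p = 0.0969). It was -0.39 in T58A (adjusted p = 0.104), -0.23 in T58A S62A (adjusted p = 0.329), and -0.26 in SH-EP (adjusted p = 0.279). Without T58A DMSO library 1, the T58A value was -0.61 (adjusted p = 0.0149). H19 was chosen on its level in MYCN-line libraries that these differences include. Its p-values thus describe spread and are not read as independent tests.

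IGF2 in WT was at 14.9, 15.9, and 24.9 scaled FPKM in DMSO and at 6.43, 7.82, and 10.0 in CYC065. It fell in all 4 MYCN lines, to log2 differences of -1.17 in WT (SE 0.234, adjusted p = 4.05e-05), -0.89 in S62A (adjusted p = 0.00104), -0.52 in T58A S62A (adjusted p = 0.0447), and -0.68 in T58A (adjusted p = 0.00970). Its value in SH-EP was -0.03 (adjusted p = 0.910). The T58A call was lost without T58A DMSO library 2 (-0.54, adjusted p = 0.0628) or library 0 (-0.57, adjusted p = 0.0509). The T58A S62A call was lost without its DMSO library 0 (-0.34, adjusted p = 0.236), DMSO library 1 (-0.54, adjusted p = 0.0689), CYC065 library 1 (-0.35, adjusted p = 0.223), or CYC065 library 0 (-0.56, adjusted p = 0.0626).

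IGF2R and PEG10 each fell in WT, T58A, and S62A and did not pass in SH-EP or T58A S62A. The IGF2R values were -0.75 in WT, -0.63 in T58A, -0.37 in T58A S62A (adjusted p = 0.0638), -0.83 in S62A, and -0.27 in SH-EP (adjusted p = 0.174). Those of PEG10 were -0.81 in WT, -0.53 in T58A, -0.37 in T58A S62A (adjusted p = 0.0844), -0.88 in S62A, and -0.32 in SH-EP (adjusted p = 0.132). The PEG10 call in T58A was lost without T58A DMSO library 2 (-0.38, adjusted p = 0.104) or library 0 (-0.41, adjusted p = 0.0850). In T58A S62A, both genes passed without DMSO library 2 (-0.46, adjusted p = 0.0389 for IGF2R and -0.49, adjusted p = 0.0417 for PEG10) or without CYC065 library 2 (-0.47, adjusted p = 0.0317 and -0.49, adjusted p = 0.0412).

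On FPKM as deposited, which expresses each gene as a share of the library, all 4 tested members were higher in CYC065 in all 5 lines, with a highest adjusted p of 0.00106. H19 rose by 0.79 to 0.97, IGF2 by 0.50 to 1.14, IGF2R by 0.56 to 0.98, and PEG10 by 0.62 to 0.93. The percent of all genes higher on this scale was 42.7 in SH-EP, 37.0 in WT, 38.1 in T58A, 38.6 in T58A S62A, and 38.8 in S62A. The median gene differed by 0.06 to 0.15. The direction of the members under CYC065 thus depends on the scale. On both scales they lay above the median gene, which has as many genes above it as below. Scaling multiplies all genes of a library by the same factor and hardly moves this order, so the scales are not separate evidence.

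**Figure D3:**
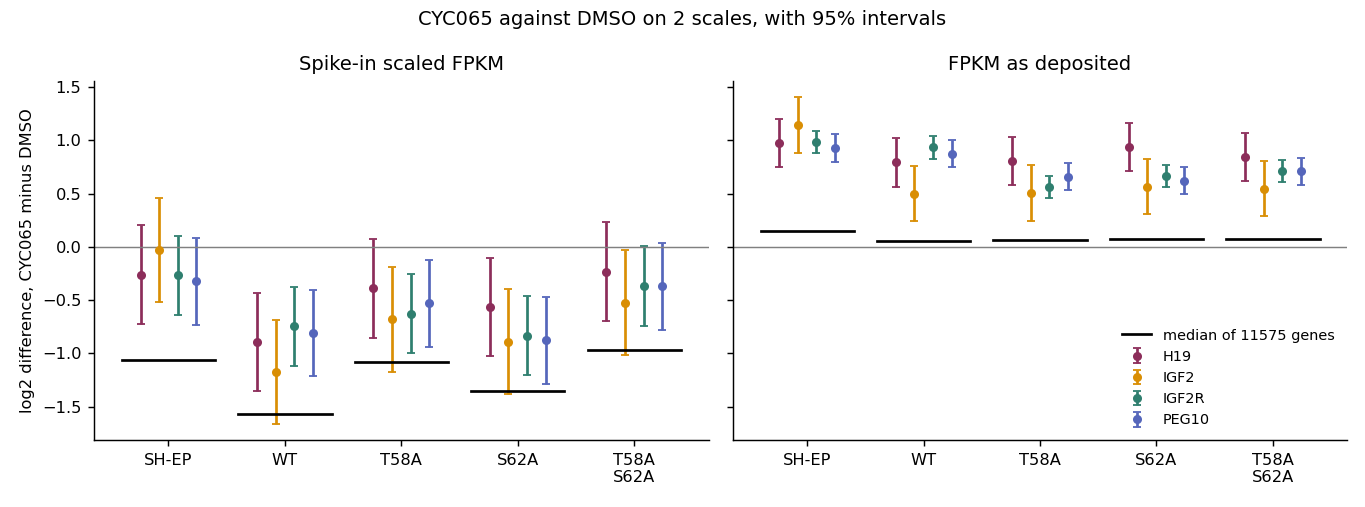
Log2 difference of CYC065 from DMSO for H19, IGF2, IGF2R, and PEG10 in each line, with 95% intervals, on spike-in scaled FPKM (left) and FPKM as deposited (right). Black bars give the median of the 11575 tested genes, and the members lie above it in every line on both scales.

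The response to CYC065 was compared between each MYCN line and SH-EP by an interaction term on the spike-in scale. The IGF2 response in WT minus that in SH-EP was -1.14 (SE 0.332, adjusted p = 0.0340), and WT was the only 1 of the 4 lines to pass for IGF2 on this scale. The call was lost without a filter on low values (adjusted p = 0.0744), with only the groups compared (adjusted p = 0.0510), and in 7 of 12 fits that left out a library: WT DMSO library 0 (-0.91, adjusted p = 0.140), WT CYC065 library 1 (-0.99, adjusted p = 0.114) or 2 (-1.13, adjusted p = 0.0638), SH-EP DMSO library 0 (-1.02, adjusted p = 0.0654) or 1 (-1.09, adjusted p = 0.0769), and SH-EP CYC065 library 0 (-1.16, adjusted p = 0.0748) or 1 (-1.17, adjusted p = 0.0733). The other IGF2 values were -0.65 in T58A (adjusted p = 0.453), -0.49 in T58A S62A (adjusted p = 0.612), and -0.86 in S62A (adjusted p = 0.145). Those of H19 were -0.13 in T58A, -0.63 in WT, 0.03 in T58A S62A, and -0.30 in S62A. They are given without a test because H19 was chosen on these libraries. Averaged over the 4 lines, the values were -0.79 for IGF2 (adjusted p = 0.0768), -0.26 for H19 (95% interval -0.78 to 0.26), -0.38 for IGF2R (adjusted p = 0.281), and -0.32 for PEG10 (adjusted p = 0.380). Of all genes, 18.1% passed in WT, 2.59% in T58A, 5.41% in T58A S62A, and 4.95% in S62A. IGF2 over the 4 lines passed without T58A DMSO library 1 (-0.85, adjusted p = 0.0240). On FPKM as deposited, the IGF2 interaction passed in all 4 lines, at -0.64 in WT (adjusted p = 0.00915), -0.60 in T58A S62A (adjusted p = 0.0150), -0.58 in S62A (adjusted p = 0.0191), with T58A at -0.64 (adjusted p = 0.0110). On that scale 28.6% of all genes passed in WT, 23.9% in T58A, 25.4% in T58A S62A, and 24.6% in S62A.

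The genes around H19 were placed by the distance of their starts from the most frequent annotated H19 start, which 7 of its 31 transcripts share. A position was found by symbol for 92.2% of the tested genes, and the rest could not be placed. Of 16 placed genes within 1000 kb of it, 14 were neither H19 nor IGF2, including SNORA54, at 0 FPKM in SH-EP and WT in DMSO. The mean log2 differences of the 14 in DMSO ran from -2.42 to 0.55 with a median of -0.08. Of these, NAP1L4 was higher and IFITM10 and SLC22A18 were lower in all 4 MYCN lines, that is 1 and 2 of 14, against 19.2% and 13.4% of all genes. IFITM10, at -2.42 (adjusted p = 1.10e-11), was named after its values were seen. MRPL23, a mitochondrial ribosomal protein gene, is the nearest of the placed genes, with its start at -50.6 kb, and its mean difference was 0.20 (SE 0.102, adjusted p = 0.09998). CTSD, the lysosomal protease cathepsin D, averaged 182 ± 4.85 FPKM over the SH-EP libraries and 179 ± 24.7 FPKM over those of WT (SD, n = 3), with a mean difference of -0.04 (adjusted p = 0.582). LSP1, a leukocyte actin-binding protein gene on the same side as CTSD, was at -0.65 (adjusted p = 0.0549).

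On the IGF2 side, the mean difference was -0.36 for TSPAN32 (adjusted p = 0.147) and -0.12 for CD81 (adjusted p = 0.101), both tetraspanin genes. The other 8 listed neighbours (SYT8, TNNI2, TNNT3, MRPL23-AS1, IGF2-AS, INS, TH, and ASCL2) were under 1 FPKM on average and were not tested. IGF2-AS, the antisense RNA at IGF2, was at 0 in SH-EP in DMSO and at 0.0415, 0.220, and 0.272 FPKM in WT, counted on strand-specific libraries.

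**Figure D4:**
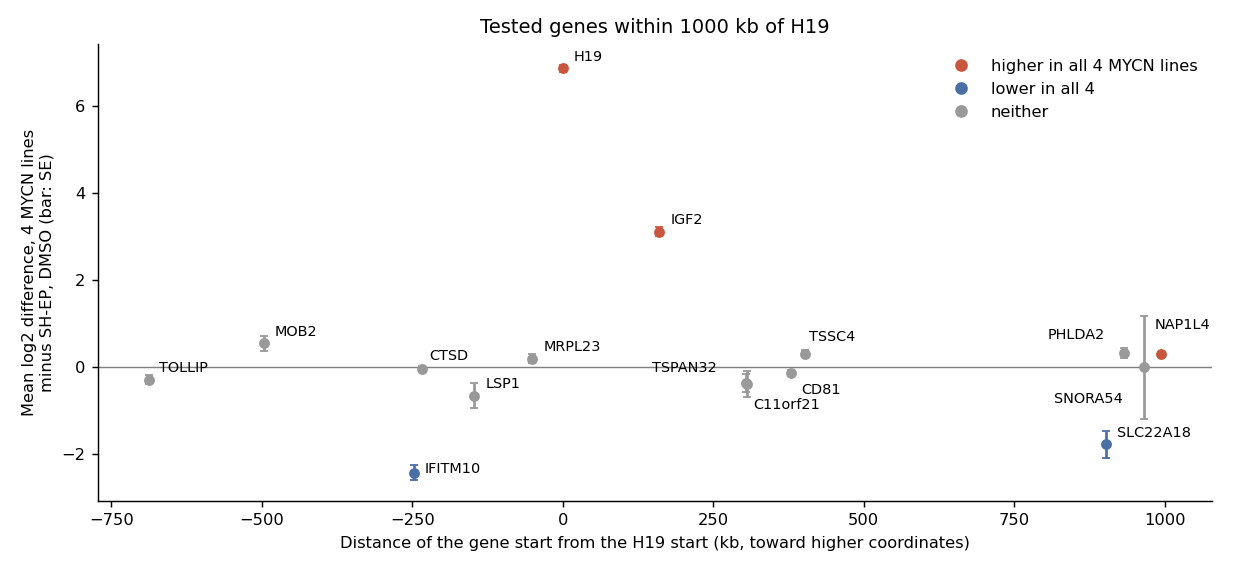
Mean log2 difference of the 4 MYCN lines from SH-EP in DMSO (y, with SE) against the distance of each tested gene's start from that of H19 (x, kb). H19 at 6.87 and IGF2 at 3.12 stand above the 14 other genes, which lie between -2.42 and 0.55.

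Outside the members, 68 imprinted genes were listed, of which 66 were in the table and 30 were tested. In DMSO, 3 of the 30 were higher and 3 were lower in all 4 MYCN lines, against 19.2% and 13.4% of all genes, and their median difference was 0.12 against 0.06 for all genes. CPA4, a carboxypeptidase gene on chromosome 7, was at 3.23, 3.34, and 3.85 FPKM in SH-EP and at 33.4, 34.8, and 39.3 FPKM in T58A S62A. Its mean difference was 2.43 (SE 0.0697, adjusted p = 5.98e-19), and the 2 groups did not overlap. MKRN3, a RING finger gene of the Prader-Willi region, was at 0.66 (adjusted p = 0.00102). NAP1L4, a histone chaperone gene at the far end of the chromosome 11 imprinted domain, was at 0.30 (adjusted p = 1.45e-06).

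The imprinted genes that were lower were SLC22A18, SGCE, and NAP1L5. SLC22A18, a transporter gene near CDKN1C, had SH-EP libraries at 3.08, 3.54, and 4.28 FPKM and WT libraries at 1.07, 1.32, and 1.42 FPKM, which did not overlap, and its mean difference was -1.77 (SE 0.312, adjusted p = 3.05e-05). SGCE encodes ε-sarcoglycan and shares a promoter region with PEG10. Its libraries were at 47.2, 51.7, and 52.9 FPKM in SH-EP and at 19.7, 21.0, and 21.7 FPKM in WT, with a mean difference of -1.12 (SE 0.0634, adjusted p = 2.11e-13). PEG10 and SGCE, which lie head to head, were thus both lower. NAP1L5, of the same family as NAP1L4, was at -0.83 (adjusted p = 0.000230). On the spike-in scale, 1 of the 30 was higher and 19 were lower in all 4 lines, against 0.294% and 67.2% of all genes.

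Several imprinted genes did not follow 1 direction across lines. PHLDA2, a growth-restraining gene of the CDKN1C domain, was higher than SH-EP in T58A (0.79, adjusted p = 0.000104), WT (0.53, adjusted p = 0.00442), and T58A S62A (0.39, adjusted p = 0.0335), and lower in S62A (-0.40, adjusted p = 0.0303). It was named after its values were seen. None of the 7 listed genes of the chromosome 14 domain, which holds DLK1 and MEG3, was tested.

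**Figure D5:**
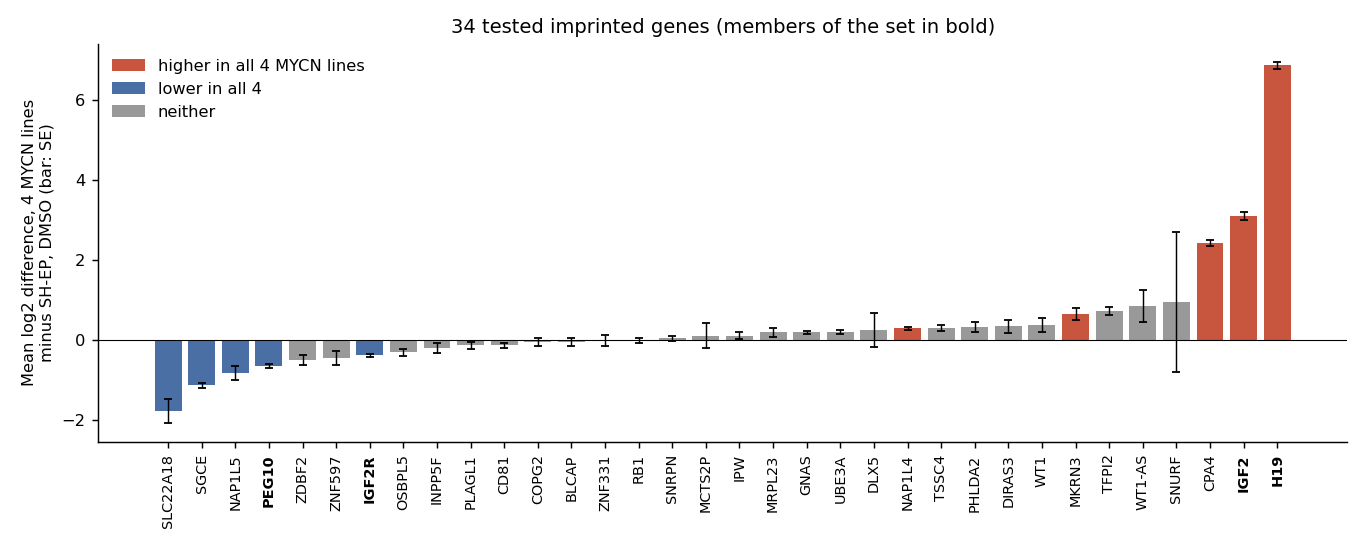
Mean log2 difference of the 4 MYCN lines from SH-EP in DMSO for the 34 tested imprinted genes, with SE (bars from 0). Colours mark genes that passed in the same direction in all 4 lines, and H19, IGF2, and CPA4 lie at the right end, from 6.87 to 2.43.

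Of the 12 tested genes of the IGF axis, 1 was higher and 3 were lower in all 4 lines, against 19.2% and 13.4% of all genes. IGF1R, the receptor through which IGF2 signals, ranged from 1.01 to 1.12 FPKM in SH-EP and from 2.03 to 2.17 FPKM in WT in DMSO, with a mean difference of 0.88 (SE 0.117, adjusted p = 6.14e-07). Those lower were IGF2R and the binding proteins IGFBP5 and IGFBP6. IGFBP6, which binds IGF2 by preference, was at 80.2 to 84.5 FPKM in SH-EP against 18.7 to 26.5 FPKM in WT, with a mean difference of -1.84 (SE 0.0878, adjusted p = 8.05e-15). IGFBP5 was at -2.30 (adjusted p = 7.14e-10). On the spike-in scale, 0 of the 12 were higher and 8 were lower in all 4 lines, against 0.294% and 67.2%.

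Of 10 tested genes that maintain or read imprints, 5 were higher in all 4 MYCN lines and 0 were lower, against 19.2% and 13.4% of all genes. The list was made with earlier results of these data known, so these shares are a description. UHRF1, which brings the maintenance methyltransferase DNMT1 to replicating DNA, was at 0.78 (SE 0.174, adjusted p = 0.000472), and DNMT1 itself at 0.38 (adjusted p = 5.47e-10). TET3, which oxidises methylcytosine, was at 1.14 (adjusted p = 1.22e-09). TRIM28, a corepressor at imprints, was at 0.37 (adjusted p = 8.83e-06), and CTCF, the factor that binds the H19 control region, was at 0.26 (SE 0.0662, adjusted p = 0.00163) and is named as the fifth for its place at H19. On the spike-in scale 0 were higher and 7 were lower in all 4 lines, against 0.294% and 67.2%.

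The genes whose pattern over the 10 group means was most like that of H19 were ranked by the root mean square difference of centred log2 levels. MYCN was first, at 0.56 with an r of 0.98, and it was at 0 in SH-EP. SAA1, an acute-phase protein gene, followed at 1.00 with an r of 0.95, and C19orf33 at 1.03 with an r of 0.95. SPARCL1, a matrix protein gene, was at 1.17 and the noncoding RNA FOXP4-AS1 at 1.23. All 5 averaged 0 to 0.273 FPKM in SH-EP in DMSO. H19 was chosen for its high level in the MYCN lines, so low SH-EP values in genes like it follow from the ranking. The high r of MYCN likewise holds the contrast of SH-EP with lines made to carry MYCN. These values describe the 10 groups only.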

How the data were processed

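RNA-Seq of 30 libraries was analysed, 3 for each of 5 lines in DMSO or CYC065. Per the study's methods, an amount of spike-in RNA set by the number of cells went into each RNA sample, poly(A) RNA was selected, directional libraries were made, reads were aligned to hg19 with HISAT, and the authors computed and deposited FPKM values with Cufflinks. Total read depth is unknown, and no interval from counts can be given. Columns name the group and a number from 0 to 2 that is not the labels' number, so libraries were mapped to groups only, and 0 columns belonged to other samples.

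The tests used limma 3.58.1 (lmFit and eBayes with trend, under R 4.3.3) on log2(FPKM + 0.1) of genes averaging 1 FPKM or more, in 1 fit over 10 groups, with Benjamini-Hochberg adjustment over all tested genes and a threshold of 0.05. For H19 between lines, and for its response against that of SH-EP, values without a test are given. A fold change on this scale understates that of low genes. Deposited FPKM served for comparing lines. For CYC065 against DMSO, each library was rescaled to equalise the median log2 value of 55 of 92 spike-ins. The fit was tested on simulated data. The alternatives were the other scale, median centring, pseudocounts of 1 and 0.01, no filter or one at 5 FPKM, only the groups compared, and leaving out each library.

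The members and gene lists were chosen with earlier results of these data known. All members and all listed neighbours of H19 and IGF2 are named. From other lists, up to 4 genes were named that passed with 1 sign in each of the 4 MYCN lines in DMSO, by largest mean change, and the 5 genes most like H19 over group means. Positions are from GENCODE on GRCh37, and RefSeq sequences are on GRCh38.p14. A further sequence window is not reported here.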

Additional observations from a re-analysis of the deposited data

Results flagged for a closer look

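The IGF2 response to CYC065 in WT differed from that in SH-EP on spike-in scaled FPKM. Its log2 difference was -1.17 in WT and -0.03 in SH-EP, and the difference between these responses was -1.14 (limma interaction test, adjusted p = 0.0340), with 18.1% of all genes passing the same test. The call was lost in 7 of 12 fits that left out 1 library, with values from -1.31 to -0.91 over the 12, without a filter on low values (adjusted p = 0.0744), and with only the groups compared (adjusted p = 0.0510). On FPKM as deposited, IGF2 was higher in CYC065 in both lines, by 0.50 in WT and 1.14 in SH-EP, and the interaction passed in all 4 MYCN lines.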

How the results depend on the processing

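Of 630 values recomputed for 90 results, other than by leaving out libraries, 541 kept their direction and side of the threshold, or for H19 between lines moved by under 0.312, the SD of its log2 level in SH-EP. Pseudocounts of 1 and 0.01 and a filter at 5 FPKM changed none of the 90. Scale decided most of the rest, and the cause was not tested. With spike-in scaling, H19 against SH-EP averaged 5.64 in DMSO and 5.38 in CYC065, H19 in T58A against WT turned to 0.14, S62A was -2.63 from WT and -2.77 from T58A, T58A S62A was 2.21 from S62A and -0.42 from WT, IGF2 in T58A S62A against WT was -0.36, and IGF2 in S62A in CYC065 turned to -0.77. Of the imprinted genes outside the members, 1 was then higher and 19 lower in all 4 lines.

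On FPKM as deposited, CYC065 against DMSO, in the order SH-EP, WT, T58A, S62A, T58A S62A and mean of the MYCN lines, turned to 0.97, 0.79, 0.81, 0.94, 0.84 and 0.84 for H19. The same order gave 1.14, 0.50, 0.51, 0.57, 0.55 and 0.53 for IGF2, 0.98, 0.93, 0.56, 0.66, 0.71 and 0.72 for IGF2R, and 0.93, 0.87, 0.66, 0.62, 0.71 and 0.72 for PEG10. The H19 interaction in T58A S62A was -0.13, and the mean interaction passed for IGF2 (-0.61), IGF2R (-0.26) and PEG10 (-0.21). With libraries centred on their median, the values in that order were 1.12, 0.95, 0.98, 1.07, 0.99 and 1.00 for H19, 1.35, 0.67, 0.69, 0.75, 0.70 and 0.70 for IGF2, 1.12, 1.09, 0.74, 0.80, 0.86 and 0.87 for IGF2R, and 1.06, 1.03, 0.84, 0.76, 0.86 and 0.87 for PEG10. The H19 interaction in T58A S62A was -0.13 there too, and the mean interactions were -0.65 for IGF2, -0.24 for IGF2R and -0.19 for PEG10. With only the groups compared, PEG10 in SH-EP passed at -0.32, while calls were lost for PEG10 in T58A (adjusted p = 0.0845), IGF2 in T58A S62A (adjusted p = 0.1002), and the IGF2 interaction in WT (adjusted p = 0.0510). With no filter, those lost were H19 in S62A (adjusted p = 0.0546), IGF2 in T58A S62A (adjusted p = 0.101), and the same interaction (adjusted p = 0.0744).

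Leaving out 1 library at a time gave -0.15 to 0.14 for IGF2 under CYC065 in SH-EP, -0.96 to -0.66 for its mean interaction, 0.38 to 0.52 for IGF2 in T58A against WT, -0.35 to 0.084 for the H19 interaction in T58A, and -0.12 to 0.24 for that in T58A S62A. No paired analysis was possible because the columns carry numbers that are not those of the labels.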
